A study of Mus musculus with 12 samples.

Results

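Cathepsins are the proteases of the lysosome, and 10 mouse genes for them were followed here in cultured oligodendrocyte precursor cells (OPCs): Ctsb, Ctsc, Ctsd, Ctsf, Ctsh, Ctsk, Ctsl, Ctso, Ctss and Ctsz. They were chosen by name as the classical lysosomal cathepsins, of 55536 genes in the deposited tables, and the rule used no measured value. Of these 10 genes, 9 reached at least 10 counts in at least 4 libraries and were tested among 17919 genes. Ctss did not reach that level and is described by its reads alone.

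The series compared OPC cultures without treatment (Ctr-OPCs), with 1 µM of the synthetic glucocorticoid dexamethasone (Dexa-treated OPCs) and with the cytokine IFN-γ at 100 ng/ml (IFN-γ-treated OPCs), the treated cultures for 48 h. Each group held 4 replicates from different litters, measured by strand-specific total RNA-seq. OPCs came from the pooled brains of pups aged P4 to P6, taken either by sorting for the reporter Sox10-GFP or with magnetic beads against CD140a, the PDGF receptor α, and grew with PDGFaa and bFGF in all 3 groups. In the study's mouse line the reporter is switched on by Cre under Sox10, a gene of the whole oligodendrocyte lineage. All cell type labels read Sox10GFP+ OPCs, so a library from the bead isolation cannot be told apart, and the mouse model field reads EAE although the growth protocol describes pup cultures.

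The 11 complete libraries held between 19209059 and 52074655 reads summed over genes. The table of Dexa replicate 3 stopped after 33.7% of the transcripts and listed only Ctsb and Ctsl of the 10 genes whole, so the Dexa group held 3 libraries for the rest. The cells carried the markers of their label: 10 of 10 OPC markers were found in every library and took 0.393% to 1.52% of its reads. Microglia, cells rich in cathepsins, left almost no reads. The 15 microglia and macrophage markers together took 0.000184% to 0.000317% of the reads, between 1 and 8 of the 15 were at 0 in a library, and Tyrobp, Trem2, Aif1 and C1qb never passed a normalized count of 3.85. The 3 markers that reached the count filter were Cd68 (27.1 to 50.3), P2ry12 (9.18 to 26.96) and Csf1r (3.67 to 11.8), which were found in every library, and none of them passed for either treatment. Both treatments were visible in textbook target genes. The IFN-γ target Irf1 rose to a log2 fold change of 6.01 over Ctr and the glucocorticoid target Per1 rose by 1.70 in Dexa-treated OPCs. Of 2 further glucocorticoid targets, Fkbp5 rose by 1.47 with Dexa. Tsc22d3 stood 0.90 above Ctr and missed the threshold without the block (adjusted p = 0.0884, DESeq2). Replicate numbers were taken to pair the libraries, since libraries of the same number tended to deviate from their group means together. The correlations for the same number (0.404 to 0.721) overlapped those for different numbers (-0.613 to 0.493). Each comparison is therefore given without and with the number as a block.

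Lysosomal cathepsins are made as inactive precursors, carried to the lysosome mostly by mannose 6-phosphate receptors, and activated there by low pH and by other proteases. Most are cysteine proteases of the papain family, whereas Ctsd is an aspartic protease. In cells that present antigen on MHC class II, cathepsins also cut the invariant chain (Cd74), which has to be removed before peptide can be loaded, and Ctss is the best known protease for this step in such cells.

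The windows of 250 bases before the RefSeq gene start (GRCm38.p6) were available for 8 of the 10 genes, all but Ctsb and Ctsh. That of Ctso is shown because Ctso alone among the cathepsins passed without the replicate block, and that of Ctss because Ctss is the cathepsin most tied to class II presentation.
Ctso, chr3:81932351-81932600, plus strand: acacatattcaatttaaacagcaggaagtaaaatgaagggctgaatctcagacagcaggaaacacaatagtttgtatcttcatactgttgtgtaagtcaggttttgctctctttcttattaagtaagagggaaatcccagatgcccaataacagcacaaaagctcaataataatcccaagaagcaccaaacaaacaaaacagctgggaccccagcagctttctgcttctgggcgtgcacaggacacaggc
Ctss, chr3:95526536-95526785, plus strand: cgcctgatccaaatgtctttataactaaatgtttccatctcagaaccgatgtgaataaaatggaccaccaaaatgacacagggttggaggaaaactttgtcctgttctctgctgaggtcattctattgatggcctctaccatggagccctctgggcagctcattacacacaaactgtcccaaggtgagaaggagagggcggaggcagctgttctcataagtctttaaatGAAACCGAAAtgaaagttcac
The capitals in the Ctss window mark the ISRE-type letters, GAAA followed by any 2 bases and GAAA, whose first base lies 21 bases before the start. Both strands were searched, and 2.98% of 32536 windows of this length hold these letters. The Ctso window holds none of the motifs searched.

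Further matches, in Ctsc, Ctsd and Ctsf, are shown as sites of 30 bases, with the motif in capitals.
Ctsc, chr7:88277839-88277868, plus strand: agctttggcgTTCCTTGAAaggcagaggtc
Ctsd, chr7:142387908-142387937, minus strand: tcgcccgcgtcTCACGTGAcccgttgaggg
Ctsf, chr19:4855074-4855103, plus strand: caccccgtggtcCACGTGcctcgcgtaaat
The GAS-type letters TTCNNNGAA began 236 bases before the Ctsc start, and 7.04% of all windows hold them. The letters TCACGTGA, the core of the CLEAR element through which TFEB drives lysosomal genes, began 99 bases before the Ctsd start, and 0.793% of all windows hold them. This match contains an E-box, CACGTG, which 6.04% of all windows hold and which also began 79 bases before the Ctsf start, 236 bases before the Ctsl start and, as a further copy, 245 bases before the Ctsd start. The annotation used for the counts begins Ctsd at 142388038 and Ctsl at 64370890, both on the minus strand. By that annotation the Ctsd match 99 bases before the RefSeq start and the Ctsl E-box lie inside the gene. A match is a run of letters and shows no binding.

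Ctsd, Ctsb and Ctsl had the highest levels among the 10 cathepsins followed here. On the scale of TPM, which divides by transcript length and so allows genes to be ranked within a library, Ctsd stood at 69.5 ± 7.30 in Ctr-OPCs (SD, n = 4), Ctsb at 41.8 ± 2.37 and Ctsl at 25.6 ± 1.75. The 3 genes together made up 76.1% to 83.7% of the summed TPM of these 10 genes in a library. Ctsa, a cathepsin outside the 10, is not part of that sum and stood at 25.1 ± 2.34 TPM in Ctr-OPCs, close to Ctsl. Ctsf followed at 11.2 ± 2.97, Ctsc at 10.4 ± 4.97 and Ctsz at 7.35 ± 2.47, and the libraries of Ctsf overlapped those of Ctsc, as those of Ctsc did those of Ctsz. Below these came Ctso at 2.92 ± 0.329 TPM, Ctsh at 1.31 ± 0.625, Ctsk at 0.171 ± 0.120 and Ctss at 0.0212 ± 0.0146, with no overlap between neighbours from Ctsz down to Ctss. Counted over protein-coding transcripts only, Ctsb stood at 19.0 TPM, below Ctsl at 24.0, and Ctsf at 6.56, below Ctsz. A transcript of 801 bases with a retained intron, Ctsb-202, held 10.4% to 14.96% of the Ctsb reads.

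**Figure D1:**
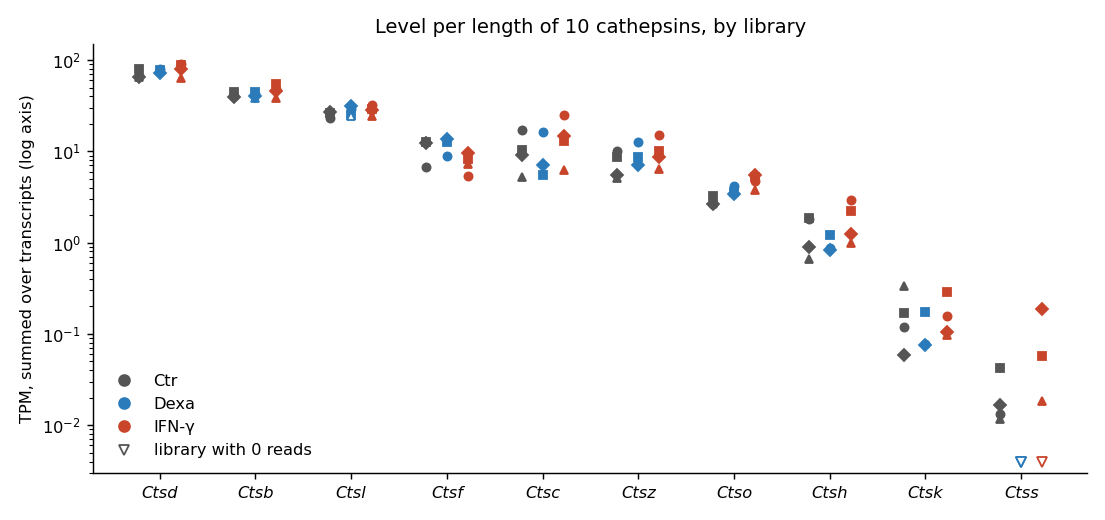
TPM of the 10 cathepsins, summed over the transcripts of each gene, on a log axis. Each point is a library, its shape gives the replicate number as in the plot of normalized counts, open symbols are Dexa replicate 3, and open triangles at the foot are libraries with 0 reads. The levels in Ctr-OPCs ran from 69.5 for Ctsd to 0.0212 for Ctss.

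Together the 10 genes held 0.0529% ± 0.00278 of all reads in the 4 Ctr libraries (mean ± SD), 0.0564% ± 0.00264 in the 3 Dexa libraries and 0.0530% ± 0.00530 in the 4 IFN-γ libraries. The shares of single libraries overlapped between all groups, with 0.0492% to 0.0554% in Ctr, 0.0540% to 0.0592% with Dexa and 0.0466% to 0.0592% with IFN-γ. Within replicate numbers 1, 2 and 4 the Dexa share was above Ctr, at 0.0592% and 0.0554%, 0.0561% and 0.0546%, and 0.0540% and 0.0522%. Ctr replicate 3, the lowest Ctr library (0.0492%), has no complete Dexa partner. The IFN-γ share was above Ctr in numbers 1 and 4 and below it in numbers 2 and 3. In bulk samples, fewer cells that express a gene and less RNA per cell cannot be told apart, for every value below. All further levels are normalized counts, which are reads divided by the size factor of the library, and are compared within a gene only.

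**Figure D2:**
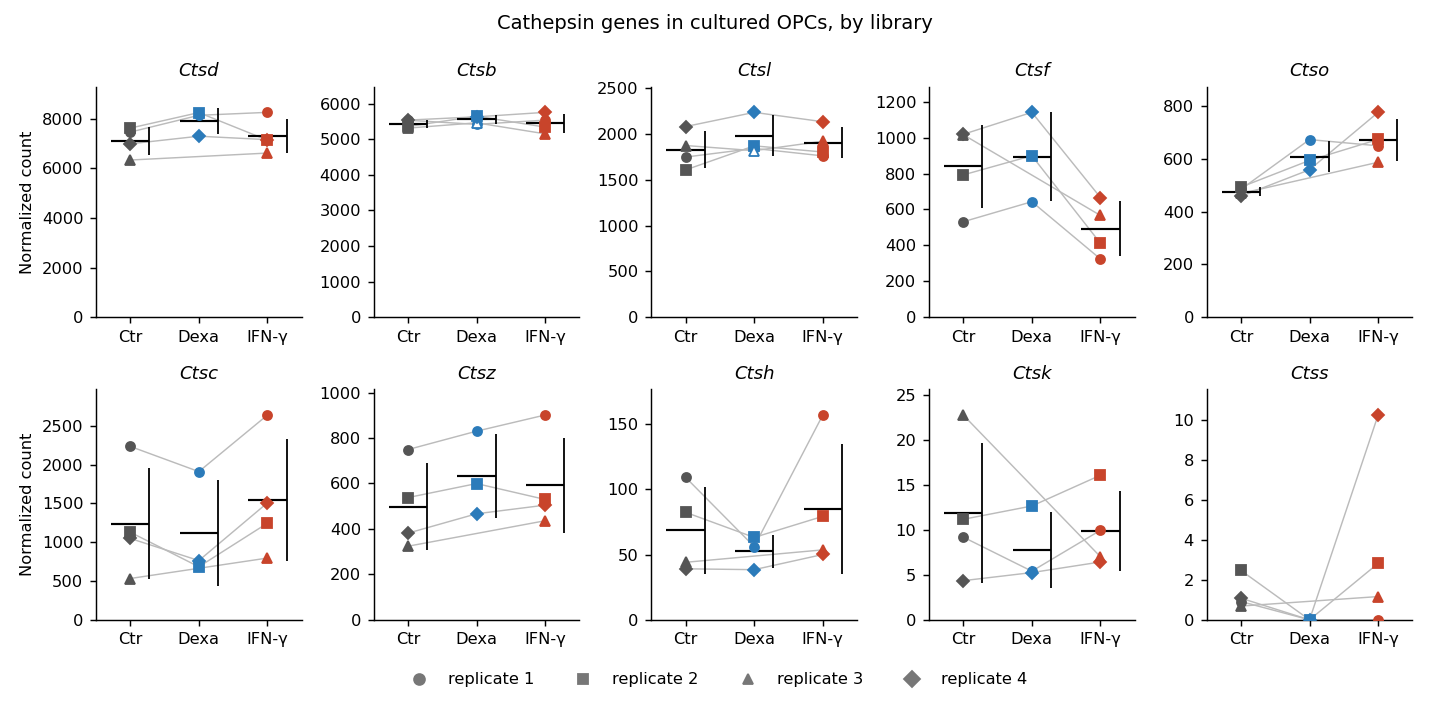
Normalized counts of the 10 cathepsins in every library, each panel on its own axis from 0. Grey lines join libraries of the same replicate number, open symbols are Dexa replicate 3, horizontal bars are means over the complete libraries and vertical bars 1 SD (not drawn for Ctss). Ctso was higher in all 4 IFN-γ libraries (587 to 777) than in all 4 Ctr libraries (458 to 493), and the lines of Ctsf run downward to IFN-γ for every replicate number.

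IFN-γ was compared with Ctr to ask which cathepsins follow the cytokine. Without the replicate block, 1 of the 9 tested cathepsins, Ctso, passed an adjusted p of 0.05 in DESeq2, beside 12.8% of all genes tested. In edgeR Ctso alone passed as well, beside 8.44% of all genes. With the block, 4 of 9 passed in DESeq2, beside 29.2% of all genes, 3 of them upward (Ctso, Ctsc and Ctsz, beside 15.2%) and Ctsf downward (beside 14.1%). The same 4 passed in edgeR with the block, beside 31.3% of all genes. Over the 4 replicate numbers Ctso, Ctsc and Ctsl were higher with IFN-γ in every pair, beside 21.2% of all genes, and Ctsf was lower in every pair, beside 23.4%. The median log2 fold change of the 9 genes was 0.06 without the block, against -0.02 for all genes.

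Ctso (chr3:81932601-81956725, plus strand) encodes a cysteine protease of the papain family whose role is less well known than that of its relatives. Its normalized counts were 485, 493, 469 and 458 in Ctr replicates 1 to 4, and 650, 674, 587 and 777 in the IFN-γ replicates of the same numbers. In Dexa replicates 1, 2 and 4 they were 673, 594 and 559. All 4 IFN-γ libraries and all 3 Dexa libraries lay above all 4 Ctr libraries, while IFN-γ and Dexa libraries overlapped. Separation of this kind, in either direction, was seen in 14.3% of all genes for IFN-γ and in 4.26% for Dexa, and Ctso was the only 1 of the 9 tested cathepsins to show it in either comparison.

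The rise of Ctso with IFN-γ was 1.41-fold (95% interval 1.22 to 1.63), a log2 fold change of 0.49 ± 0.11 (SE). Its adjusted p was 8.45e-05 in DESeq2 and 0.0110 in edgeR. Within replicate numbers the ratios were 1.34, 1.37, 1.25 and 1.69. The coding transcript Ctso-201 held 95.9% to 98.7% of its reads in every library. In Dexa-treated OPCs the ratio was 1.28 (1.09 to 1.50), with an adjusted p of 0.248 in DESeq2, which misses the threshold. IFN-γ and Dexa-treated OPCs differed by a log2 of 0.14 ± 0.12 (adjusted p = 0.545, DESeq2), with an interval of the ratio from 0.939 to 1.29.

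The genes whose levels followed those of Ctso most closely over the 11 complete libraries were Abca8b (Pearson r = 0.97 on log2(normalized count + 1)), D430036J16Rik (r = 0.95) and Cited2 (r = 0.93). These values are a description, since all libraries share the treatments that move Ctso. Abca8b, a transporter of the ABC family, rose by a log2 of 1.12 ± 0.19 with IFN-γ (adjusted p = 6.36e-08, DESeq2) and stood 0.69 ± 0.20 above Ctr in Dexa-treated OPCs without passing (adjusted p = 0.100). D430036J16Rik passed in both comparisons, at 2.85 ± 0.36 and 2.02 ± 0.40 on the log2 scale in DESeq2. Cited2, a regulator of transcription that binds CBP and p300, rose by 0.59 ± 0.13 with IFN-γ (adjusted p = 1.23e-04, DESeq2).

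Ctsf (chr19:4855130-4860918, plus strand), a cysteine protease known to cut the invariant chain in macrophages and needed in neurons to keep storage material from building up, lay in the other direction. Its normalized counts were 531, 792, 1017 and 1019 in Ctr replicates 1 to 4 and 324, 412, 566 and 666 in IFN-γ replicates 1 to 4. In Dexa replicates 1, 2 and 4 they were 643, 899 and 1141. The groups overlapped, with replicate 1 lowest and replicate 4 highest in each of the 3 groups, but every IFN-γ library lay below the Ctr library of its number, with ratios of 0.609, 0.519, 0.557 and 0.654.

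Without the block the log2 fold change of Ctsf was -0.77 ± 0.29 with an adjusted p of 0.0626 in DESeq2, which misses the threshold. With the block it fell by 0.78 on the log2 scale, to 0.583 of the Ctr level (0.513 to 0.662), and its adjusted p was 3.87e-15 in DESeq2 and 2.65e-05 in edgeR. It also passed without the block when effective transcript length was taken into account (adjusted p = 0.0284, DESeq2), and in the block fits that left out each replicate number in turn. Against Dexa-treated OPCs the log2 difference was -0.86 ± 0.32 (adjusted p = 0.0505, DESeq2) without the block and -0.97 ± 0.11 (adjusted p = 1.50e-18) with it. In Dexa-treated OPCs the level of Ctsf was 1.06-fold that of Ctr (0.692 to 1.64) without the block and 1.15-fold (0.996 to 1.32) with it, and did not pass with or without the block.

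Summed markers of the lineage moved with Ctsf. The summed normalized count of the 10 OPC markers was 195528, 327002, 455664 and 442115 in Ctr replicates 1 to 4 and 134008, 222691, 314088 and 315571 in IFN-γ replicates 1 to 4. Like Ctsf, this sum was lowest in replicate 1 of each group and lower with IFN-γ in every pair. The 8 oligodendrocyte markers summed to between 11475 and 73705 in Ctr-OPCs and to between 7763 and 26983 in IFN-γ-treated OPCs. In DESeq2 without the block 1 of 10 OPC markers (C1ql1) and 1 of 8 oligodendrocyte markers (Enpp6) passed downward with IFN-γ. Of all genes 12.8% passed there, in either direction. With the block 7 of 10 and 3 of 8 passed downward, beside 14.1% of all genes. In edgeR without the block 0 of both lists passed, beside 8.44% of all genes. Among the 10 OPC markers Ptprz1 stood 0.22 above Ctr on the log2 scale without the block. The others lay below Ctr, from Olig1 (-0.06) to C1ql1 (-2.20). The part of these markers in the change of Ctsf was not tested. The coding share of the Ctsf reads, 69.3% to 81.3%, did not separate the groups, and the rest lay on transcripts with retained introns and a processed transcript.

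Ctsc and Ctsz passed upward with IFN-γ only in the fits with the block. Ctsc (chr7:88278085-88310888, plus strand), dipeptidyl peptidase 1, removes dipeptides from protein ends and activates the serine proteases of immune cell granules. Its normalized counts were 2235, 1129, 532 and 1049 in Ctr replicates 1 to 4, and 2640, 1246, 796 and 1508 in IFN-γ replicates 1 to 4. In Dexa replicates 1, 2 and 4 they were 1910, 684 and 764. Replicate 1 was highest in each group and the highest library was 2.79 to 4.20 times the lowest within a group, a wider spread than the ratio between treatments in any pair.

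Within replicate numbers, Ctsc was higher with IFN-γ by ratios of 1.18, 1.10, 1.50 and 1.44 and lower with Dexa by ratios of 0.855, 0.605 and 0.728. With the block the log2 fold change was 0.37 ± 0.11 for IFN-γ (adjusted p = 0.00437 in DESeq2, 0.0153 in edgeR), against 0.32 ± 0.49 (adjusted p = 0.788, DESeq2) without it. Leaving out number 3 or 4 from the block fit ended that call (adjusted p = 0.0619 and 0.0896, DESeq2). For Dexa the block fit gave -0.43 ± 0.12 (adjusted p = 0.0235 in DESeq2, 0.111 in edgeR), and leaving out number 2 or 4 ended it (adjusted p = 1.00 and 0.296, DESeq2). Without the block the log2 fold change for Dexa was -0.14 ± 0.53 and did not pass. Between the treatments themselves, with the block, Ctsc was 1.74-fold higher in IFN-γ than in Dexa-treated OPCs (1.47 to 2.06, adjusted p = 2.09e-09 in DESeq2), and each of the 4 block fits without a replicate number kept that call. Without the block that ratio was 1.38 (0.671 to 2.85, adjusted p = 0.685, DESeq2) and did not pass.

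Ctsz (chr2:174427493-174439039, minus strand), a carboxypeptidase, had normalized counts of 749, 538, 324 and 381 in Ctr, 901, 530, 436 and 505 with IFN-γ and 830, 600 and 466 with Dexa. The groups overlapped, and the IFN-γ level was above Ctr in 3 of 4 pairs. The block fit gave a log2 fold change of 0.26 ± 0.11 for IFN-γ (adjusted p = 0.0429 in DESeq2, 0.0361 in edgeR), and the call held in 1 of 4 fits that left out a replicate number, that without number 2. For Dexa, Ctsz was above Ctr in each of 3 pairs but did not pass with the block (0.22 ± 0.12, adjusted p = 0.609, DESeq2).

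Ctsh (chr9:90054152-90076089, plus strand), an aminopeptidase, was low. Its normalized counts were 109, 82.4, 44.1 and 39.1 in Ctr, 157, 79.3, 53.6 and 50.1 with IFN-γ, and 56.1, 63.2 and 38.4 with Dexa. It passed in neither treatment against Ctr, and passed between IFN-γ and Dexa with the block (0.77 ± 0.28 on the log2 scale, adjusted p = 0.0241 in DESeq2, 0.0266 in edgeR), a call that ended when number 1 or 2 was left out (adjusted p = 0.492 and 0.0627, DESeq2). Only 17.0% to 75.5% of its reads lay on protein-coding transcripts, and 18.3% to 83.0% on Ctsh-202, a transcript annotated for nonsense-mediated decay, so these counts are not those of coding mRNA alone.

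Ctsc, Ctsz and Ctsh were grouped after their values were seen, by a shared pattern over the replicate numbers. In Ctr and in IFN-γ-treated OPCs all 3 were highest in replicate 1, where Ctsf was lowest. With Dexa, Ctsc and Ctsz were highest in replicate 1 but Ctsh in replicate 2. How many of all genes follow this pattern was not counted. The summed count of 8 astrocyte markers was also highest in replicate 1 of each group, at 51258 in Ctr (lowest 17004), 52192 with IFN-γ (lowest 34781) and 65991 with Dexa (lowest 36537). Of the 7 astrocyte markers tested, 2 passed upward with IFN-γ in DESeq2 without the block (Gfap and Aldoc) and 1 in edgeR (Gfap). Of all genes 12.8% and 8.44% passed there, in either direction. With the block 4 passed upward and 2, Aqp4 and Gja1, downward in DESeq2, beside 15.2% and 14.1% of all genes. The list thus did not move in 1 direction. In Ctr and IFN-γ libraries this sum ran in the same order as Ctsc, and with Dexa it did not. Like Ctso, the sum was also higher than Ctr in all 4 IFN-γ pairs and all 3 Dexa pairs, with overlap between the groups. Its part in the levels of Ctsc, Ctsz, Ctsh and Ctso was not tested.

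**Figure D3:**
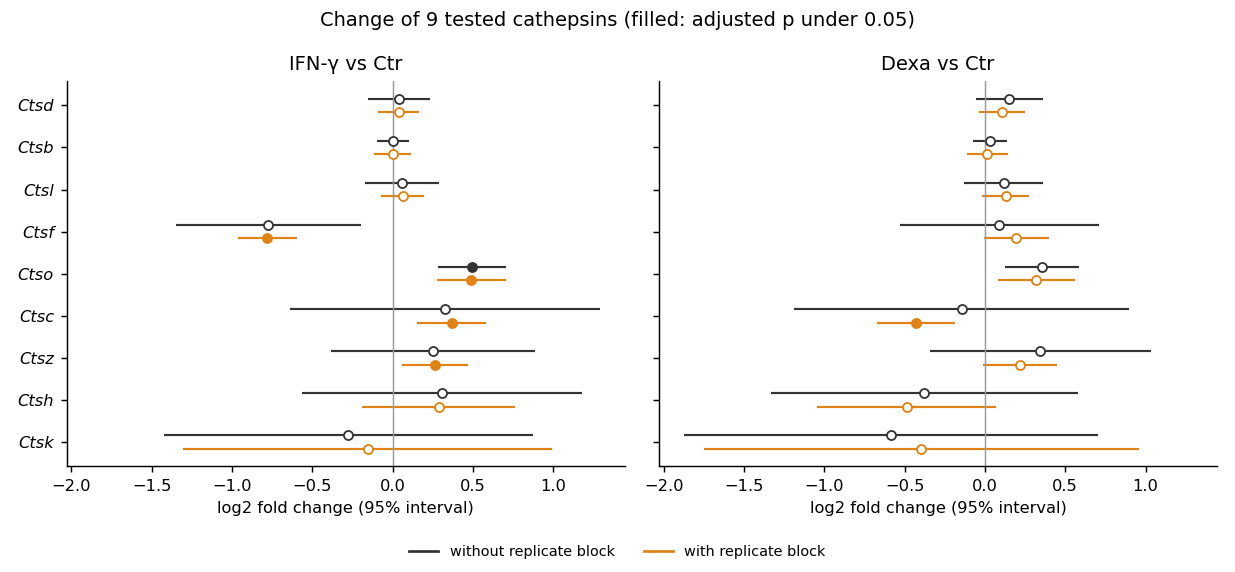
Log2 fold changes of the 9 tested cathepsins against Ctr, from DESeq2 without (black) and with (orange) the replicate number as a block, with 95% intervals. Filled points pass an adjusted p of 0.05. The block hardly moved the estimates for IFN-γ (Ctsf -0.77 and -0.78, Ctsc 0.32 and 0.37) but narrowed the intervals of the genes that varied between litters, Ctsf, Ctsc and Ctsz. For Dexa the estimate of Ctsc was -0.14 without the block and -0.43 with it. Without the block, Dexa replicates 1, 2 and 4 are set against Ctr replicates 1 to 4. Ctr replicate 3, the lowest Ctr library for Ctsc (532), has no complete Dexa partner.

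The 3 most abundant of the 10 cathepsins did not pass in any comparison, and their intervals were narrow. Ctsb (chr14:63122462-63145923, plus strand), both an endopeptidase and a carboxypeptidase, had normalized counts of 5309 to 5534 in Ctr, 5148 to 5751 with IFN-γ and 5414 to 5643 with Dexa, here with all 4 Dexa libraries. Its ratio of IFN-γ to Ctr was 1.00 (0.936 to 1.07) and of Dexa to Ctr 1.02 (0.951 to 1.10) over the 11 complete libraries. Ctsd (chr7:142375911-142388038, minus strand), the main aspartic protease of lysosomes, ranged from 6328 to 7613 in Ctr, from 6609 to 8248 with IFN-γ and from 7287 to 8239 with Dexa. Its ratio was 1.03 (0.898 to 1.17) for IFN-γ and 1.11 (0.962 to 1.29) for Dexa. A change of Ctsb or Ctsd by 1.5-fold against Ctr in either direction lay outside all 4 intervals.

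Ctsl (chr13:64359337-64370890, minus strand), an endopeptidase that cuts the invariant chain in thymic epithelium, had normalized counts of 1607 to 2079 in Ctr, 1760 to 2132 with IFN-γ and 1817 to 2235 over 4 Dexa libraries. Its ratio of IFN-γ to Ctr was 1.04 (0.890 to 1.22). Ctsk (chr3:95499256-95509362, plus strand), the collagen-degrading protease of osteoclasts, lay between 4.34 and 22.7 normalized counts in all libraries, from 65 reads in the Ctr group, 23 with Dexa and 38 with IFN-γ, and its interval for IFN-γ against Ctr, 0.372 to 1.83, leaves room for changes of either sign.

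Ctss (chr3:95526786-95556403, plus strand) stayed near 0 with IFN-γ. Its reads numbered 1, 4, 1 and 1 in Ctr replicates 1 to 4, 0, 3, 1 and 8 in IFN-γ replicates 1 to 4, and 0 in each of the Dexa replicates 1, 2 and 4. Of 125845145 reads in the IFN-γ group 12 fell on Ctss, against 7 of 167036736 in Ctr-OPCs. In Dexa-treated OPCs 0 of 89098734 reads fell on it, a count that still allows up to 3, by counting error only. Tested without the count filter, Ctss had an adjusted p of 0.670 in DESeq2 for IFN-γ against Ctr. IFN-γ replicate 4, with 8 of the 12 reads, also held the most counts of Adgre1 (11.6, against 0 to 5.83 in the other libraries). Adgre1 is 1 of the 15 microglia and macrophage markers, whose summed count was 107 in that library and 102 in Ctr replicate 2. Aif1, C1qb and Itgam (3.85 each) and C1qa (5.14), all with few reads, were highest in that IFN-γ library as well. Other markers of the list peaked elsewhere, Cd68 (50.3) and Fcrls (5.58) in a Ctr library, and Csf1r (11.8) and C1qc (3.37) in a Dexa library. The part of macrophages in the Ctss reads was not tested.

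Genes of class II presentation, the process in which Ctss acts, were also followed. Of 7 genes of class II presentation, 6 rose with IFN-γ, with or without the block. In DESeq2 12.8% of all genes passed without the block and 29.2% with it, in either direction. The list had a median log2 fold change of 8.08 in DESeq2. Ciita, the master regulator of class II genes, had 39.7 to 59.7 normalized counts in Ctr-OPCs and 6832 to 7889 with IFN-γ. The invariant chain gene Cd74 had 0.918 to 6.89 in Ctr-OPCs and 1727 to 2755 with IFN-γ. H2-Aa and H2-Ab1, the chains of the class II molecule I-A, rose by 10.06 and 8.08 on the log2 scale in DESeq2. Ifi30, the lysosomal thiol reductase that opens disulfide bonds of antigens beside the cathepsins, alone among the 7 did not pass, with 16.1 to 20.7 normalized counts in Ctr and 17.0 to 28.2 with IFN-γ (log2 fold change 0.32 ± 0.34, adjusted p = 0.668, DESeq2). With Dexa 0 of the 7 genes passed in DESeq2 or edgeR.

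**Figure D4:**
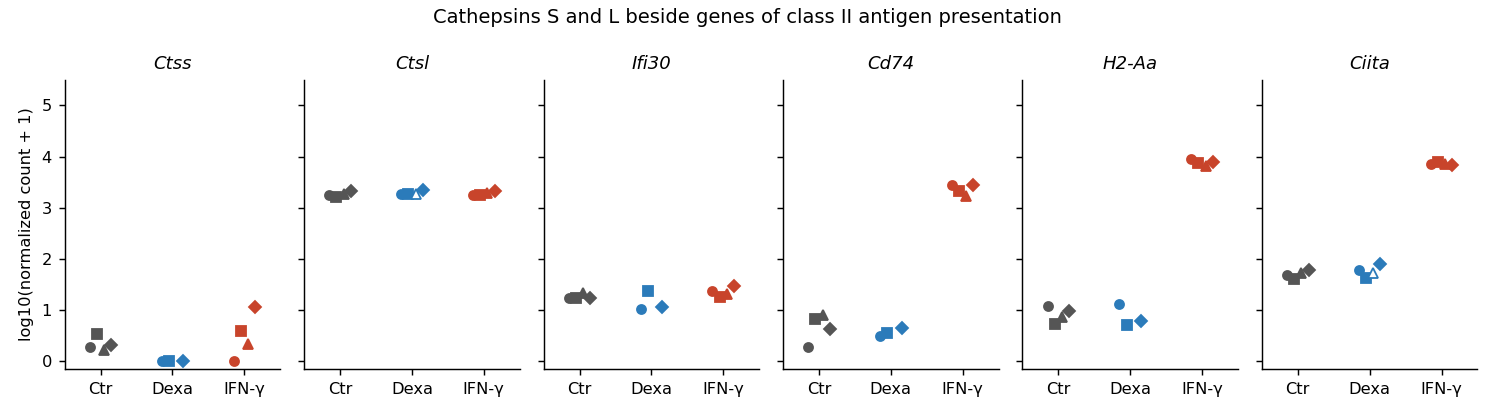
Levels of Ctss, Ctsl and 4 genes of class II presentation in every library, as log10(normalized count + 1) on a shared axis. Each point is a library, with the shape for the replicate number and open symbols for Dexa replicate 3. Cd74, H2-Aa and Ciita separated IFN-γ from the other groups, whereas Ctsl stayed between 1607 and 2235 normalized counts and Ctss and Ifi30 stayed low.

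Dexa against Ctr gave 0 called cathepsins of 9 in DESeq2 without the block, beside 0.547% of all genes, and 0 in edgeR, beside 0.123%. At an unadjusted p under 0.05 the count was 1, Ctso, in both tools, beside 3.58% of all genes in DESeq2 and 3.13% in edgeR. With the block DESeq2 called 1, Ctsc, beside 2.57% of all genes, and edgeR called 0, beside 1.57%. At an unadjusted p under 0.05 the block gave 2 in DESeq2 (Ctsc and Ctso), beside 8.505% of all genes, and 5 in edgeR (Ctsc, Ctsf, Ctsl, Ctso and Ctsz), beside 10.97%. Over the 3 complete pairs 5 of 9 cathepsins were higher with Dexa in every pair (Ctsd, Ctsf, Ctsl, Ctso and Ctsz), beside 21.0% of all genes, and 2 were lower in every pair (Ctsc and Ctsh), beside 22.9%. In replicate 3, whose Dexa table listed Ctsl whole, Ctsl was lower with Dexa, at a ratio of 0.970. The median log2 fold change of the 9 genes was 0.09 without the block, against -0.01 for all genes.

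Directly compared, IFN-γ and Dexa-treated OPCs differed in 0 of 9 cathepsins without the block in DESeq2 and edgeR, beside 13.1% and 8.77% of all genes. No tested cathepsin separated these groups without overlap, beside 19.9% of all genes. At an unadjusted p under 0.05 the count was 1, Ctsf, in both tools, beside 23.2% of all genes in DESeq2 and 21.7% in edgeR, and with the block 3 in both, beside 39.0% and 43.5%. With the block Ctsc and Ctsh were higher with IFN-γ and Ctsf was lower, 3 of 9 beside 31.6% of all genes in DESeq2, and the same 3 passed in edgeR, beside 33.7%. The comparisons share their libraries, so their values are not independent of each other.

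Of 13 further genes named as cathepsins, 9 had no read in any of the 11 libraries and 2 were tested. Ctsa, a serine carboxypeptidase that protects lysosomal β-galactosidase and neuraminidase, had 1779 to 2271 normalized counts and a log2 fold change of -0.11 ± 0.10 with IFN-γ (adjusted p = 0.591, DESeq2). Ctsw, a protease of cytotoxic lymphocytes, had 6.52 to 30.2 normalized counts and did not pass.

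Of the inhibitors of cysteine cathepsins, 3 of 7 were tested and 0 passed without the block in DESeq2 in either treatment. Of all genes 12.8% passed there for IFN-γ and 0.547% for Dexa. Cst3, cystatin C, the main secreted inhibitor, had normalized counts of 6947, 5051, 2407 and 3889 in Ctr and 5349, 3022, 2807 and 3240 with IFN-γ, and with the block its log2 fold change was -0.29 ± 0.13 (adjusted p = 0.0819, DESeq2). Cstb, stefin B, which acts inside the cell, was higher in 4 of 4 pairs and passed with the block (0.35 ± 0.12, adjusted p = 0.0143 in DESeq2, 0.0124 in edgeR). Cst6 had 2.75 to 15.1 normalized counts and passed in edgeR with the block only (adjusted p = 0.0189).

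Among 10 genes for the sorting and maturation of lysosomal enzymes, 1 rose and 1 fell with IFN-γ in DESeq2 without the block. This stands beside 12.8% of all genes in either direction, and the median log2 fold change of the list was 0.02. Grn, progranulin, which enters lysosomes and binds Ctsd, rose by 0.57 ± 0.12 (adjusted p = 7.19e-05). Its normalized counts were 1435, 1309, 1211 and 1266 in Ctr and 2241, 1738, 1830 and 1921 with IFN-γ, with no overlap. Gnptg, a subunit of the enzyme that starts the mannose 6-phosphate tag, had counts of 1392, 1651, 1676 and 1880 in Ctr and 1112, 1194, 1344 and 1268 with IFN-γ, also with no overlap, and fell by 0.42 on the log2 scale (adjusted p = 0.00576). With the block 3 passed upward and 3 downward, beside 15.2% and 14.1% of all genes. Lgmn, the asparagine-specific protease that processes several cathepsins, was added upward (0.40 ± 0.07, adjusted p = 7.55e-07), as was Scarb2, the carrier of β-glucocerebrosidase (0.49 ± 0.07, adjusted p = 5.51e-12). Gnptab, the catalytic subunit of the tagging enzyme, and Nagpa, which completes the tag, were added downward (-0.40 ± 0.09 and -0.40 ± 0.12, adjusted p = 5.94e-05 and 0.00432, DESeq2). The receptors of the tag, M6pr and Igf2r, did not pass with or without the block.

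Other lysosomal genes were called at shares to be read against the 12.8% of all genes called without the block and the 29.2% with it. Of 10 lysosomal membrane genes 3 rose with IFN-γ and 0 fell in DESeq2 without the block: Lamp2, a main membrane glycoprotein, by 1.02 ± 0.13, Laptm4a by 0.70 ± 0.06 and Tmem192 by 0.47 ± 0.14. Of 15 subunits and partners of the vacuolar ATPase, the pump that acidifies lysosomes, 2 rose, Atp6v1h by 0.37 ± 0.08 and Atp6v1d by 0.33 ± 0.09. Of 33 other lysosomal hydrolases and their cofactors 2 rose and 5 fell. Sgsh, an enzyme of heparan sulfate breakdown, fell by 0.57 and Galc, the galactocerebrosidase that degrades a myelin lipid, fell by 0.43. In edgeR without the block the counts were 2, 2 and 1 upward and 0, 0 and 2 downward, Tmem192 not being called (adjusted p = 0.0784). With the block DESeq2 called 5 membrane genes upward and 4 downward, 3 and 1 of the vacuolar ATPase, and 6 and 8 hydrolases. The medians of these 3 lists without the block were 0.07, -0.06 and -0.02, against -0.02 for all genes. The transcription factors Tfeb, Tfe3 and Mitf, which drive lysosomal genes through the CLEAR element, did not pass in DESeq2 or edgeR, with or without the block, for either treatment (0 of 3 tested of 4), with log2 fold changes of -0.02, -0.05 and -0.15 for IFN-γ. With Dexa 0 genes of all these lists passed without the block in DESeq2.

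**Figure D5:**
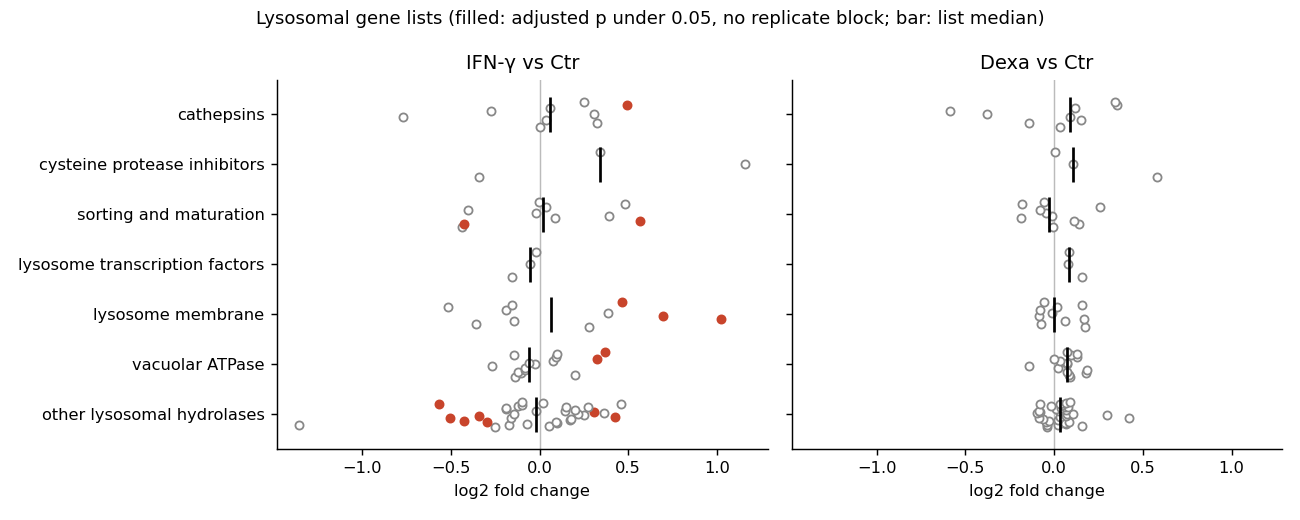
Log2 fold changes of each tested gene in 7 lists of lysosomal genes against Ctr, from DESeq2 without the block. Each point is a gene, filled red points pass an adjusted p of 0.05 and black bars are list medians. With IFN-γ the points of most lists lay on both sides of 0, around medians near 0. Genes passed in both directions only among the sorting genes and the other hydrolases. Among the cathepsins Ctso passed, and with Dexa 0 genes passed.

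Some members overlap neighbouring genes, and the effect of these on the counts was not tested. Ctsb overlaps Fdft1 and Ctsz overlaps Nelfcd on the opposite strand, and both neighbours were expressed, at 4440 to 7914 and 1336 to 2494 normalized counts. Nelfcd reaches to 174427502 and Ctsz spans from 174427493, so these 2 genes share only a few bases at their ends. Genes on the same strand as Ctsd and Ctsl (Gm49369 and Gm49230) reached at most 0.918, and Hmgb1-ps5, a pseudogene on the strand of Ctss, reached 8.63, so reads near it are uncertain. The library kit kept the strand, but whether the quantification used it is not given in the sources used here.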

How the data were processed

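Each library's table, as the authors deposited it, lists for every transcript an estimated count from Salmon 0.8.2 (version per the submitters' processing notes) and a TPM value, its abundance corrected for length and library size. Effective lengths in the same tables served as an offset in 1 alternative. Transcript identifiers matched GENCODE mouse M21 on GRCm38, with 0 transcripts without a gene. STAR is also named in the notes, with builds mm10 and GRCm38. The authors further deposited DESeq2 tables of their own comparisons, holding mean counts, fold changes and p-values, which were not used here.

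The authors' estimated counts were summed per gene and rounded. A gene entered the test when 4 or more of the 11 complete libraries had 10 or more counts. Tests were run with DESeq2 1.42.0 in R 4.3.3 (Wald test on the group, no covariate, all 3 groups in 1 fit, Benjamini-Hochberg adjustment, called at an adjusted p under 0.05, no shrinkage). Size factors ranged from 0.572 to 1.61. An SE follows ± beside a log2 fold change and an SD follows it elsewhere. Reads are not unique molecules, so limits from counts cover counting error only.

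Libraries of the same replicate number correlated in their deviations from the group means at 0.404 to 0.721 (10 pairs), against -0.613 to 0.493 for different numbers (30 pairs), and the labels say that replicates came from different litters. Numbers 3 and 4 share a title prefix whose meaning is not stated, in all 3 groups. A fit with the number as a block, edgeR 4.0.16 (quasi-likelihood test) with and without it, TMM factors, other filters, fewer groups and libraries left out were alternatives, as was Dexa replicate 3 for genes listed whole. Within each group every pair of libraries differed by more than counting noise. Each test was tried on simulated data.

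All 10 cathepsins are named. From the other lists the up to 3 called genes with the lowest adjusted p for IFN-γ are named, with the inhibitors, other cathepsins and sorting genes open to naming. Some genes that this rule names are not reported here. The genes nearest to Ctso are the 3 with the highest r. Adgre1, Cd68, P2ry12, Csf1r, Itgam, Fcrls, C1qa, C1qc, Aqp4, Gja1, Ptprz1, Olig1, Tyrobp, Trem2, Aif1, C1qb, Ifi30, Cd74, Tfeb, Tfe3, Mitf, Per1, Fkbp5, Tsc22d3 and the overlapping neighbours were named after their values were seen. The members and lists were chosen with earlier results of these data known. Promoter windows are from RefSeq.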

Additional observations from a re-analysis of the deposited data

Results flagged for a closer look

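Of 22 groups of 4 libraries examined (the normalized counts of the 10 cathepsins, Ctss included, with 4 Dexa libraries only for Ctsb and Ctsl), 1 held a library far from the others. For Ctsl, Dexa replicate 4 had a normalized count of 2234.62, against 1816.61 to 1869.27 in the other 3. Its gap to the nearest of them was 0.874 of the group's whole range, above the 95% critical value of Dixon's test for 4 values. Chance alone flags about 1 in 20 such groups. Ctsl of number 4 was also highest in Ctr (2079.48) and with IFN-γ (2132.38).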

How the results depend on the processing

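Fold changes of the cathepsins kept their direction wherever they passed, and Ctso passed for IFN-γ in all 20 alternatives, at log2 fold changes of 0.40 to 0.55 (adjusted p 6.30e-06 to 0.0110 in DESeq2 and edgeR). Ctsf passed in 9 of 20 (adjusted p 3.87e-15 to 0.235). The number of cathepsins called rested on the replicate block. For IFN-γ against Ctr it was 4 with the block in DESeq2 and in edgeR and 2 with the effective length offset (Ctsf added). It was 1 to 2 when single libraries were left out, 2 without Ctr replicate 1 or IFN-γ replicate 4, which added Ctsf (adjusted p = 0.00879 and 0.0206, DESeq2), and 2 to 4 in the block fits without each replicate number. Leaving out Dexa replicate 1 from the shared fit also brought Ctsf to an adjusted p of 0.0476 in DESeq2. For Dexa against Ctr it was 1 with the block in DESeq2, 0 to 1 in block fits without a number and 0 when single libraries were left out. For IFN-γ against Dexa it was 3 with the block in both tools, 1 with the effective length offset, with protein-coding transcripts or with 2 groups only (Ctsf each time), 0 to 1 without single libraries, Ctsf being added without Dexa replicate 1 (adjusted p = 0.0234, DESeq2) or IFN-γ replicate 4 (0.0163) and, from the shared fit, without Ctr replicate 1 (0.0199), and 2 to 3 in block fits without a number.

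Of all genes tested, 2302 were called for IFN-γ against Ctr, 1513 in edgeR, 5238 with the block in DESeq2 and 5606 with the block in edgeR, with 1714 to 2647 when single libraries were left out and 4769, 3552, 4116 and 4070 in the block fits without number 1, 2, 3 and 4. The share of higher calls was 62.4% in DESeq2 without the block, 71.8% in edgeR and 51.9% in DESeq2 with it. For Dexa against Ctr the counts were 98, 22 in edgeR, 460 with the block, 282 with the block in edgeR, 60 to 112 (60 without Dexa replicate 2) and 260, 177, 420 and 326 in those block fits. For IFN-γ against Dexa they were 2345, 1571 in edgeR, 5662 with the block and 6045 with it in edgeR, 1679 to 2326 without single libraries of these groups (2512 without Ctr replicate 1 in the shared fit), and 4648, 3488, 5071 and 4275 in those block fits. Fits with 3 Dexa libraries and with low-count genes (Ctsk, Ctss, Ctsh) are limited in precision, and leaving out a library of Dexa leaves 2. No alternative called a cathepsin in the opposite direction, but some estimates that did not pass had the opposite sign. Over the alternatives, log2 fold changes for IFN-γ against Ctr ran from -0.06 to 0.78 for Ctsc and from -0.02 to 0.52 for Ctsz. For Dexa against Ctr those of Ctsc ran from -0.77 to 0.31. The block fits without a number were chosen after seeing the data.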
